A study of Mus musculus with 4 samples.

Results

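Classical monocytes with low Cxcl10 were 809 of the 39906 immune cells that passed filtering in single-cell RNA sequencing of mouse MC38 tumours. They were chosen on raw UMIs (unique molecules counted per gene and cell): at least 5 of Lyz2, at least 5 of Ly6c2, at least 2 of Chil3 and Vcan together, at most 1 of Cxcl10, at most 1 of Thbs1 and none of Ace. Cells also had to hold fewer than 10 UMIs of C1qa, C1qb and C1qc together per 10000, and at most 1 UMI each of Cd209a, Siglech and the sum of the Cd3 genes. These 15 genes are therefore no finding, and their values below are given as a description with no test. Before gating, cells under 300 genes, under 500 UMIs or above 15% mitochondrial UMIs were dropped.

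MC38 is a mouse colorectal tumour line, here grown under the skin of 8-week-old mice, and the CD45-positive cells of each tumour were sorted before capture. There were 4 libraries: 2 from WT mice, here WT-1 and WT-2, and 2, here cKO-1 and cKO-2, from Trim25 cKO mice, which carry a conditional knockout of Trim25. The series title places the ablation in T cells, and the sources used here do not name the promoter that drives the recombinase. The labels give the tissue as colon and do not say whether a library held a single animal or a pool, so p-values measure the spread between these libraries, which may be technical. The comparison of genotypes asks how these cells differed between WT and Trim25 cKO mice.

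Classical monocytes are short-lived blood cells made in the bone marrow. In mice they carry Ly6C on the surface and leave the marrow through the chemokine receptor CCR2, and in tumours they are a source of macrophages. Interferons act on them through STAT proteins and IRF factors, which bind interferon-stimulated response elements in front of genes such as Ifit1 and Rsad2. CXCL10, which attracts T and NK cells through CXCR3, is among the genes that interferons induce. Low oxygen acts through HIF1A, which binds a short core motif in front of genes of glycolysis and vessel growth. MHC class II genes are switched on by the co-activator CIITA, which works through factors bound to the X and Y boxes of their promoters.

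Promoter stretches of 8 genes on which the comparisons below turn are shown here, 90 bases each, 5′ to 3′ on the strand of the gene. They are from RefSeq on GRCm38.p6, with the motif searched for in capitals. The interferon motif was GAAA, 2 bases of any kind and GAAA, the Y box was CTGATTGG and the hypoxia core was ACGTG, each on both strands within 250 bases before the start. Rsad2, Ifit1 and Gbp5 stand for the interferon genes that were low in these monocytes. F13a1 and Stxbp6 are the leading genes of these monocytes and hold no interferon motif in the window searched. The starts are those of RefSeq. For Stxbp6 and Gbp5 the windows shown lie inside the gene as GENCODE places it. The stretch before the GENCODE start was therefore not searched in full for these genes. H2-Aa and H2-Eb1 are MHC class II genes, and Bnip3 is a hypoxia-responsive gene whose capitals hold the core on both strands.
Rsad2 (chr12:26456508-26456597, minus strand, 145 to 56 bases before the start): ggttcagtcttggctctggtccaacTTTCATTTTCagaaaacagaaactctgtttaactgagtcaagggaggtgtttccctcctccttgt
Ifit1 (chr19:34640760-34640849, plus strand, 129 to 40 bases before the start): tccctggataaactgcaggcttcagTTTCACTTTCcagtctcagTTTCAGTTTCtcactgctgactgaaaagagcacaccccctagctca
Gbp5 (chr3:142496744-142496833, plus strand, 190 to 101 bases before the start): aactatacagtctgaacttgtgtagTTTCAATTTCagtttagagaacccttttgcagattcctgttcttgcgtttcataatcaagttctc
F13a1 (chr13:37050245-37050334, minus strand, 90 to 1 bases before the start): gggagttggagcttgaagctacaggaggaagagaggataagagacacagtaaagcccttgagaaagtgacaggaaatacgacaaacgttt
Stxbp6 (chr12:45074484-45074573, minus strand, 90 to 1 bases before the start): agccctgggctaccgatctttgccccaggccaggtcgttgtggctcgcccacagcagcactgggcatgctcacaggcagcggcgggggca
H2-Aa (chr17:34287824-34287913, minus strand, 90 to 1 bases before the start): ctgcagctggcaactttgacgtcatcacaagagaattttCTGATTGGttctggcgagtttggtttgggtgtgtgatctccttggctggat
H2-Eb1 (chr17:34305777-34305866, plus strand, 90 to 1 bases before the start): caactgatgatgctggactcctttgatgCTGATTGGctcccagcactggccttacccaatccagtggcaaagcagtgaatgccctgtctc
Bnip3 (chr7:138909550-138909639, minus strand, 133 to 44 bases before the start): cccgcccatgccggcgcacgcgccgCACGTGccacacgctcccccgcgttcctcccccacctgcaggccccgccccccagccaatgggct
Over all 32851 RefSeq starts, 2.98% held the interferon motif, 3.83% the Y box and 16.6% the hypoxia core. The interferon motif was found at 15 of 36 starts (41.7%) of the type I interferon list used below, which matched 30 of its 40 genes. It was found at 0 of 19 starts of the 20 leading genes, of which 15 matched. The hypoxia core was found at 17 of 35 starts (48.6%) of the glycolysis and hypoxia list. These matches describe letters in a window, not bound sites.

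The monocytes numbered 237 and 286 in the WT libraries and 151 and 135 in the cKO libraries (replicate 1, then replicate 2, here and below), and their UMIs summed to between 1606004 and 3143212 per library. Their median depth was 10768 to 13175 UMIs per cell, against 7796 to 10017 over all cells. Markers of other cell types were summed in CPM (UMIs of a gene per 1000000 UMIs of the summed cells). T cell markers summed to 25.5 to 56.3 CPM, against 896 to 1109 CPM in all other cells, B cell markers to 7.38 to 24.5 CPM and red cell markers to 0 to 5.90 CPM. Markers of tumour or fibroblast-like cells summed to 3.99 to 9.54 CPM. NK cell markers summed to 68.6 to 298 CPM, against 1459 to 1708 CPM in all other cells. Neutrophil markers, at 173 to 404 CPM, were not lower than in all other cells (234 to 386 CPM). Markers of C1q macrophages summed to 796 to 999 CPM (1963 to 2406 CPM in all other cells), of plasmacytoid dendritic cells to 300 to 359 CPM (615 to 826 CPM) and of non-classical monocytes to 187 to 291 CPM (198 to 357 CPM). Cell barcodes shared between libraries numbered 310, and 10 member cells carried such a barcode, none of them as a member in 2 libraries.

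The label was checked against a marker that the gate did not use, and that marker was high. F13a1, which encodes the A chain of coagulation factor XIII and marks classical monocytes, was at 980 and 1054 CPM in WT and 1091 and 1126 CPM in cKO. The 4 libraries lay close to each other. All other cells were at 172 ± 23.2 CPM (SD, n = 4 libraries), so the ratio in the same library was between 4.82 and 7.09. Among genes at 200 CPM or more, F13a1 (chr13:36867178-37050244 on GRCm38, minus strand) ranked second by its lowest ratio, behind Stxbp6 (chr12:44852484-45074709, minus strand). Stxbp6, which encodes a syntaxin-binding protein of the exocytosis machinery, was at 229 ± 22.2 CPM against 35.9 ± 6.52 CPM, a ratio of 5.28 to 7.15. Since the cells were picked by expression, these ratios are a description.

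Of the 20 leading genes, 2 (Lyz2 and Chil3) belonged to the gate. Hp, which encodes the haemoglobin scavenger haptoglobin, was at 228 ± 44.3 CPM, 3.64 to 6.12 times the level of other cells. Mgst1, a microsomal glutathione transferase, was at 423 ± 49.9 CPM and 3.59 to 5.23 times that level. Fn1 (fibronectin) was at 1129 ± 50.7 CPM and 3.32 to 4.10 times that level, and Gda (guanine deaminase) was at 855 ± 12.2 CPM against 241 ± 31.4 CPM. The chemokine genes Ccl9 (385 ± 27.4 CPM) and Ccl6 (530 ± 65.9 CPM) and the complement gene C3 (234 ± 13.3 CPM) were also among them. The chemokine receptor gene Ccr2 (1497 ± 105 CPM) was at 1.98 to 2.41 times the level of other cells.

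Within the monocytes the leading genes were unevenly spread over cells. Before thinning, F13a1 had at least 1 UMI in 71.7% to 77.8% of the monocytes of a library. Cells under 5000 UMIs were then dropped and the others thinned to 5000 UMIs. This kept 128 to 256 monocytes, 479 to 650 T cells and 184 to 297 C1q macrophages per library. F13a1 then had a UMI in 68.5% to 73.1% of the monocytes, against 3.10% to 4.38% of T cells. At that depth the median monocyte held 3 to 4 UMIs of F13a1, the 10th percentile 0 and the 90th percentile 13 to 15.4. Stxbp6 had a UMI in 37.5% to 40.6% of thinned monocytes and 0.462% to 1.03% of thinned T cells. Ccr2 had a UMI in 93.0% to 100% of thinned monocytes, 37.3% to 41.4% of thinned T cells and 56.2% to 75.4% of thinned C1q macrophages. H2-Ab1, an MHC class II chain, was found in 35.6% to 45.3% of thinned monocytes and 36.3% to 42.7% of thinned T cells, so its share was not above the background that free RNA can give. The summed MHC class II and dendritic-cell-like genes were at 3033 to 4834 CPM in the monocytes and 1711 to 2352 CPM in T cells.

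**Figure D1:**
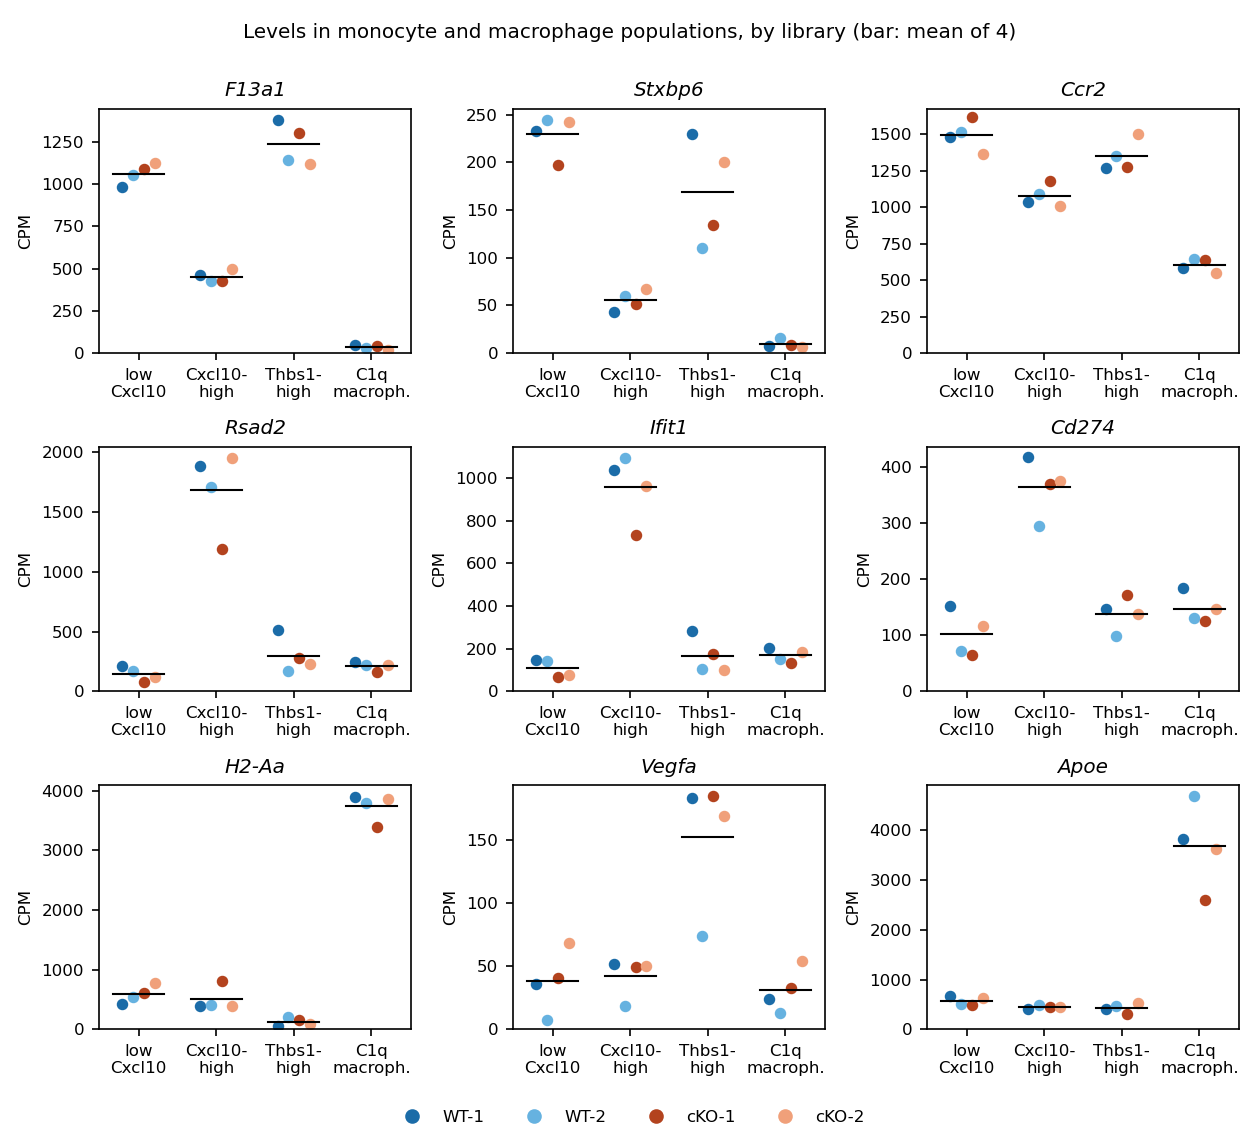
Level in CPM (vertical axes, each from 0) of 9 genes in classical monocytes with low Cxcl10, Cxcl10-high monocytes, Thbs1-high monocytes and C1q macrophages. Each point is 1 library and each bar the mean of 4; F13a1 was at 980 to 1126 CPM in the low-Cxcl10 monocytes and at 18.1 to 48.4 CPM in C1q macrophages.

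The monocytes were set against cells that met every other condition but held at least 5 UMIs of Cxcl10, in the same libraries. These Cxcl10-high monocytes numbered 508 and 494 in WT and 205 and 380 in cKO. The low-Cxcl10 monocytes had lower levels of interferon-response and inflammatory genes and higher levels of F13a1 and Stxbp6. Genes that vary with Cxcl10 within a cell are tied to the gate through it, so all values and counts of this comparison describe the 2 gates and support nothing further. Of 9802 genes tested with edgeR's quasi-likelihood test at an adjusted p of 0.05, 1193 (12.2%) were higher and 1549 (15.8%) lower in the low-Cxcl10 monocytes. DESeq2 called 486 higher and 1235 lower.

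Of 38 tested genes of the type I interferon list, 37 were lower and 0 higher, with a median log2 fold change of -1.44. Rsad2, which encodes the antiviral enzyme viperin, was at 212 and 172 CPM in WT and 75.3 and 121 CPM in cKO, against 1885, 1710, 1190 and 1952 CPM in Cxcl10-high monocytes of the same libraries. The ranges of the populations did not overlap, and the log2 fold change was -3.73 ± 0.11 (SE). Ifit1, an inhibitor of translation of viral RNA, was at 107 ± 42.6 CPM against 956 ± 158 CPM (-3.34 ± 0.11). The 10 lowest log2 fold changes also included those of Ifit1bl1 (-3.42), Ifit3b (-3.37), Cmpk2 (-3.20), Iigp1 (-3.18), Gbp5 (-2.95), Ifit2 (-2.92), Tnfsf10 (-2.92) and Ifit3 (-2.92). Of these 10 genes, 9 matched a promoter, and 6 of the 9 held the interferon motif shown above.

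The interferon gamma list had 23 of 23 tested genes lower, with a median of -1.37. Cd274, which encodes the checkpoint ligand PD-L1, was at 101 ± 41.1 CPM against 364 ± 51.1 CPM (-2.06 ± 0.12). Socs1, a feedback inhibitor of cytokine signalling, was at 15.3 ± 4.66 CPM against 62.5 ± 19.3 CPM (-2.21 ± 0.13). Of 12 tested genes of the list of TRIM25 and RNA sensing, 9 were lower and 1 higher. Among the lower ones were the RNA sensors Ifih1 (MDA5, -1.96 ± 0.06) and Ddx58 (RIG-I, -1.66 ± 0.07).

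Inflammatory genes were also lower, 16 of 19 with 0 higher and a median of -0.62. Acod1, which makes itaconate, was at 76.9 ± 23.4 CPM against 370 ± 112 CPM (-2.42 ± 0.12), and Il6 at 28.1 ± 11.9 CPM against 94.7 ± 21.3 CPM (-1.93 ± 0.18). Of 12 chemokine genes, 9 were lower and 2 higher, among them Ccl12 (-2.13 ± 0.12), Ccl4 (-1.51 ± 0.11) and Ccl2 (-1.36 ± 0.04), the last a ligand of CCR2. Of 25 genes of glycolysis and hypoxia, 15 were lower and 1, Ndrg1, was higher (0.72 ± 0.11), and 9 of 24 were lower with cells holding an NK marker UMI left out. Fcgr1, the high-affinity IgG receptor, was at 289 ± 21.0 CPM against 558 ± 23.5 CPM (-1.11 ± 0.06).

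Genes that were higher in the low-Cxcl10 monocytes included 17 of the 18 leading genes outside the gate, all but C3 (0.11). The leading genes were picked in these same data for high ratios over all other cells, which include the Cxcl10-high monocytes. That count is therefore largely set by the choice of genes. Stxbp6 was at 233 and 244 CPM in WT and 197 and 243 CPM in cKO, against 43.4, 59.4, 51.8 and 67.2 CPM. Every low-Cxcl10 value was above every Cxcl10-high value, and the log2 fold change was 1.90 ± 0.09. F13a1 was at 1063 ± 62.5 CPM against 453 ± 33.6 CPM (1.06 ± 0.06). Next after Stxbp6 came Ldlrad3 (1.76), St8sia4, a polysialyltransferase (1.34), Tmcc1 (1.34), the adducin gene Add3 (1.30) and the receptor kinase gene Grk5 (1.23). Klf2, a transcription factor of resting leukocytes, was higher by 1.07 ± 0.10, Cebpd by 0.82 ± 0.11 and Nr4a1 by 0.50 ± 0.09. Ifngr1, a chain of the interferon gamma receptor, was at 229 ± 19.6 CPM against 122 ± 14.4 CPM (0.74 ± 0.08), and Vsir, which encodes VISTA, at 169 ± 12.3 CPM against 102 ± 10.6 CPM (0.56 ± 0.09).

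Of 18 tested genes of classical identity, 5 were higher and 7 lower, so that list had no common direction. Of 7 granule genes, 4 were higher and 0 lower, among them Mmp8 (0.64 ± 0.08). S100a8 and S100a9 were among the 4, and S100a9 was at 3.27 and 65.5 CPM in WT and 107 and 0.623 CPM in cKO, so WT-2 and cKO-1 set its level. Neutrophil markers summed highest in those same libraries, at 334 and 404 CPM against 173 and 211 CPM. That marker list holds S100a8 and S100a9 themselves, so the match is no independent sign of neutrophil RNA. The part of neutrophil RNA in the result was not tested.

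Markers of other cells moved with this comparison. T cell markers had 3 of 5 tested genes lower, at a sum of 25.5 to 56.3 CPM against 57.6 to 88.0 CPM. Plasmacytoid dendritic cell markers had 2 of 3 lower, at 300 to 359 CPM against 544 to 668 CPM. The part of either in the result was not tested. All 8 NK cell markers were lower in the low-Cxcl10 monocytes, at a sum of 68.6 to 298 CPM against 379 to 595 CPM, and 36.3% to 54.8% of low-Cxcl10 against 60.8% to 72.5% of Cxcl10-high cells held a UMI of them. With all such cells left out, 1312 genes were called in place of 2742, of 8063 tested, 452 of them higher and 860 lower. This left 61 to 151 low-Cxcl10 and 66 to 199 Cxcl10-high monocytes per library, and the part of the lower cell numbers was not tested. The type I interferon list then still had 37 of 38 genes lower (median -1.37), and granule genes had 1 of 6 higher. Rsad2 was at -3.52, Stxbp6 at 1.66 and F13a1 at 0.84.

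Cxcl10 itself was graded in these cells, and the low gate held its bottom end. Members just inside the limit, with 1 UMI of Cxcl10, had 9232 to 11633 CPM of the summed type I interferon list, and cells just outside it, with 2 UMIs, had 12600 to 13977 CPM. Cells with no Cxcl10 UMI had 9002 to 11189 CPM and cells with 20 or more had 26291 to 33598 CPM. F13a1 went the other way, from 1029 to 1237 CPM at 0 UMIs to 387 to 472 CPM at 20 or more. In cKO-1 the lowest F13a1 level, 315 CPM, was in the step of 5 to 19 UMIs. At the Ly6c2 limit, F13a1 was at 507 to 963 CPM in cells with 5 UMIs of Ly6c2 and at 603 to 768 CPM in cells with 4, from 7 to 24 cells per library.

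**Figure D2:**
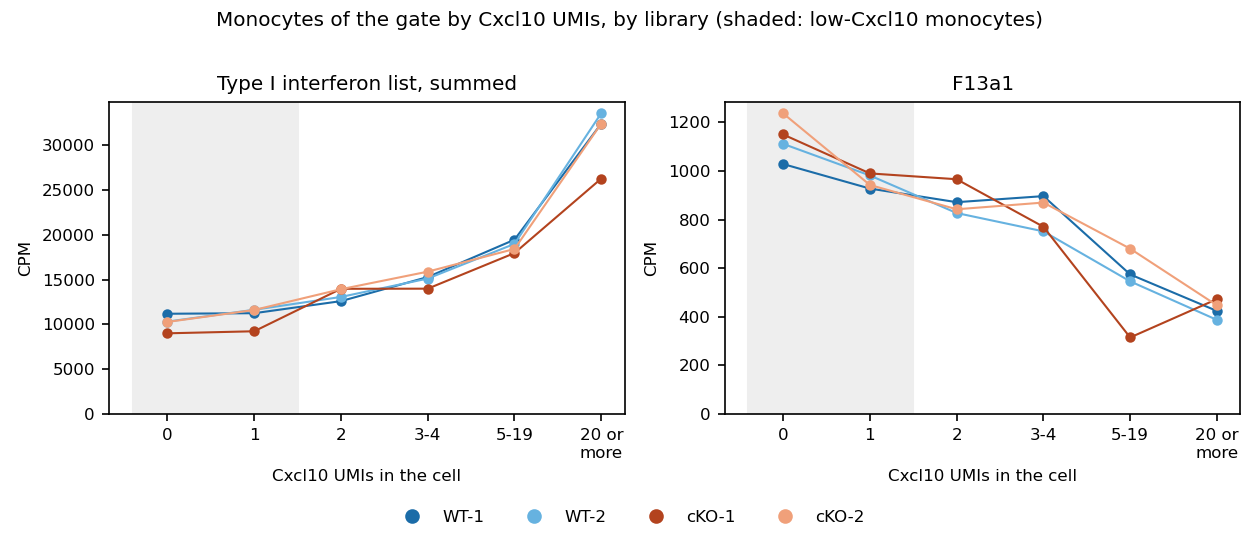
Summed CPM of the type I interferon list (left) and CPM of F13a1 (right) in monocytes grouped by their Cxcl10 UMIs (horizontal axis, unequal steps), 1 line per library. The shaded steps are the low-Cxcl10 monocytes; the interferon sum was 9002 to 11189 CPM at 0 UMIs and 26291 to 33598 CPM at 20 or more.

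Another near population differed in 1 condition too, at least 5 UMIs of Thbs1 in place of at most 1. Thbs1 encodes thrombospondin 1, and these Thbs1-high monocytes numbered 108 and 118 in WT and 121 and 94 in cKO. The low-Cxcl10 monocytes had less of the hypoxia and glycolysis transcripts and more MHC class II. Of 8498 genes tested, 158 (1.86%) were higher and 495 (5.82%) lower, and as above genes that vary with Thbs1 are tied to the gate, so these counts are a description. Red cell markers summed to 2168 CPM in the Thbs1-high cells of cKO-1 and to at most 5.10 CPM in those of the other libraries. Without cKO-1, 357 genes were called, 89 higher and 268 lower.

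Of 25 tested genes of glycolysis and hypoxia, 20 were lower and 0 higher, with a median of -0.69 (17 of 25 lower without cKO-1). Vegfa, which drives vessel growth, was at 35.6 and 7.32 CPM in WT and 40.8 and 68.5 CPM in cKO, against 183, 73.6, 184 and 169 CPM. WT-2 was lowest in both populations, and the 2 ranges did not overlap (-2.26 ± 0.20). Hilpda, a lipid droplet protein, was lower by 1.95 ± 0.33 on the log2 scale, Bnip3, a mitophagy receptor, was at 71.7 ± 24.3 CPM against 149 ± 31.0 CPM (-1.20 ± 0.14), and Hif1a at 492 ± 58.5 CPM against 854 ± 99.7 CPM (-0.90 ± 0.06). Arg1, the arginase of suppressive myeloid cells, was at 32.6 ± 13.9 CPM against 85.2 ± 42.7 CPM (-1.42 ± 0.20).

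Inflammatory genes had 9 of 19 lower and 0 higher, led by Ptgs2, the inducible cyclooxygenase (-1.83 ± 0.19), and the cytokine gene Osm (-1.40 ± 0.10). The neutrophil attractant Cxcl2 was at 193 ± 97.5 CPM against 411 ± 208 CPM (-1.22 ± 0.12), and the matrix protein gene Spp1 fell by 1.21 ± 0.18 on the log2 scale. Cd14, the endotoxin co-receptor, was at 265 ± 72.9 CPM against 543 ± 84.6 CPM (-1.16 ± 0.08). Of 38 type I interferon genes, 15 were lower and 0 higher with a median of -0.29, and 5 were lower without cKO-1 and 7 without WT-1. Trim25 was at 168 ± 21.7 CPM against 250 ± 59.9 CPM (-0.66 ± 0.10). F13a1 was also lower here, at 1063 ± 62.5 CPM against 1236 ± 125 CPM (-0.31 ± 0.07), and Stxbp6 did not pass the test (0.38 ± 0.14). Of the 18 leading genes outside the gate, 2 were higher and 6 lower than in Thbs1-high monocytes, with a median of -0.16. Classical identity genes had 1 of 18 higher and 9 lower (median -0.21, 5 lower without cKO-1), and S100 genes 0 of 13 higher and 6 lower.

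MHC class II and dendritic-cell-like genes had 7 of 12 higher and 2 lower. H2-Aa was at 430 and 537 CPM in WT and 611 and 785 CPM in cKO, against 55.6, 211, 156 and 83.0 CPM (2.17 ± 0.20). Every low-Cxcl10 value was above every Thbs1-high value, although H2-Ab1 transcripts were unevenly spread: at 5000 UMIs per cell the median monocyte held 0 of its UMIs and the 90th percentile 3.5 to 10.3. H2-Ab1 (2.10 ± 0.22), H2-Eb1 (1.92 ± 0.18), the invariant chain gene Cd74 (1.65 ± 0.15) and Ciita (2.10 ± 0.27) were higher as well. Of the 10 highest genes, 5 matched a promoter, and 4 of those 5 held the Y box. Over the whole MHC class II list the Y box was found at 2 of 8 starts. Of the 10 lowest genes, 9 matched a promoter. The hypoxia core was found at 1 of their 12 starts, beside 16.6% of all RefSeq starts. Of 14 non-classical genes, 6 were higher and 2 lower, among them the fractalkine receptor gene Cx3cr1, at 230 ± 23.2 CPM against 116 ± 21.2 CPM (0.90 ± 0.12). With cells that held an NK marker UMI left out, 202 genes were called in place of 653 (33 higher and 169 lower of 6654 tested), H2-Aa was at 1.34 and Vegfa at -2.40. This left 61 to 151 low-Cxcl10 and 46 to 70 Thbs1-high monocytes per library, and the part of the lower cell numbers was not tested. In that setting the glycolysis and hypoxia list had 12 of 24 genes lower, the MHC class II list 4 of 11 higher, the non-classical list 1 of 13 higher and the type I interferon list 6 of 38 lower.

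C1q macrophages, with at least 5 UMIs of Lyz2 and at least 50 C1q UMIs per 10000, numbered 431, 504, 499 and 530. Against them the low-Cxcl10 monocytes had higher levels of most classical identity and S100 genes and lower levels of most macrophage and proliferation genes. Of 10304 genes tested, 2606 (25.3%) were higher and 2515 (24.4%) lower. These populations were gated apart on C1q and on Ly6c2, Chil3 and Vcan, so these counts too are a description. The macrophages were shallower, with a median of 3653 to 6546 UMIs per cell.

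Classical identity genes had 13 of 18 higher and 4 lower, with a median of 1.96. F13a1 was at 1063 ± 62.5 CPM against 35.1 ± 13.9 CPM (5.02 ± 0.20). Among genes at 100 CPM or more, Hp had the highest value (5.86 ± 0.18), followed by the phospholipase gene Plcb1 (5.52 ± 0.11), the collagenase gene Mmp8 (5.33 ± 0.25) and Mgst1 (5.02 ± 0.12). The calcium-binding S100 list had 10 of 14 higher, with S100a4 at 1786 ± 204 CPM against 145 ± 29.3 CPM (3.68 ± 0.07). Of 25 genes of trafficking and growth factor receptors, 17 were higher and 4 lower, among the higher ones the hyaluronan receptor gene Cd44 (2.05 ± 0.07) and the integrin gene Itgb7 (3.09 ± 0.13). Immediate early genes had 15 of 21 higher and 4 lower, among them Nr4a1, which was at 465 ± 70.8 CPM against 75.4 ± 20.8 CPM (2.68 ± 0.08).

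Of 26 genes of macrophage differentiation and lysosome, 20 were lower and 2 higher. Apoe, a lipid carrier of tissue macrophages, was at 675 and 519 CPM in WT and 482 and 626 CPM in cKO, against 3831, 4687, 2608 and 3628 CPM (-2.62 ± 0.10). Every monocyte value was below every macrophage value. Ms4a7 fell by 3.14 ± 0.09 on the log2 scale, the tetraspanin gene Cd63 by 3.81 ± 0.09 and the efferocytosis receptor gene Mertk by 2.98 ± 0.15. The adhesion gene Cadm1 had the lowest value (-6.35 ± 0.14), at 3.13 ± 1.07 CPM against 274 ± 6.26 CPM. H2-Eb1 was at 439 ± 94.5 CPM against 3505 ± 289 CPM (-2.98 ± 0.12). The chemokine genes Pf4 (-4.89 ± 0.17), Ccl12 (-3.68 ± 0.10) and Ccl7 (-3.57 ± 0.14) were low as well.

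Of 21 proliferation genes, 20 were lower and 1 higher, with a median of -2.17. Cdk1, the kinase of mitotic entry, was at 7.09 ± 6.46 CPM against 43.5 ± 8.23 CPM (-2.68 ± 0.30). Mki67 had a UMI in at most 10.2% of thinned monocytes of a library (5.93% to 20.5% before thinning). The share was 13.6% to 22.2% in thinned C1q macrophages and 21.9% to 27.9% in thinned T cells. The type I interferon list split, with 17 higher and 10 lower of 38 and a median of 0.07, and 5 were lower with cells holding an NK marker UMI left out.

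**Figure D3:**
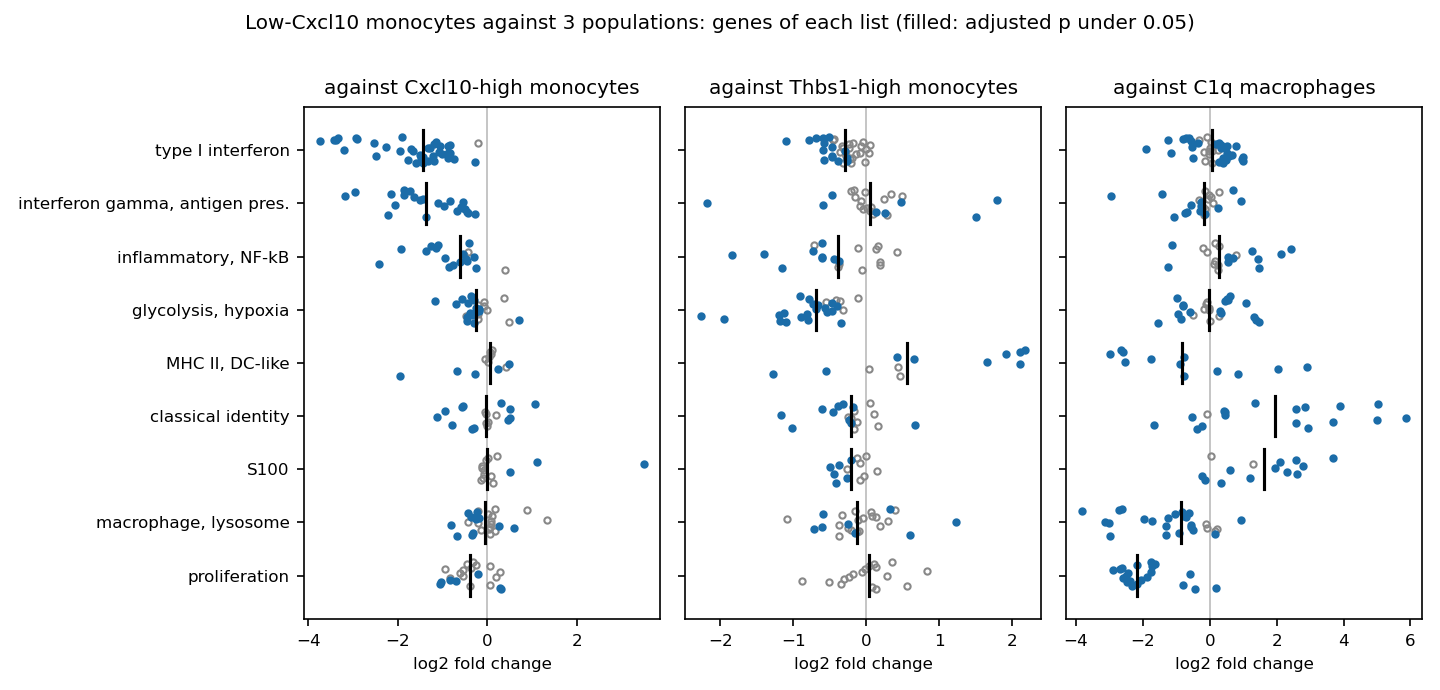
Log2 fold change (horizontal axes, different ranges) of low-Cxcl10 monocytes against Cxcl10-high monocytes, Thbs1-high monocytes and C1q macrophages, for the tested genes of 9 lists. Each point is 1 gene, filled where the adjusted p was under 0.05, and each bar is the list's median; the type I interferon list had a median of -1.44 against Cxcl10-high monocytes, -0.29 against Thbs1-high monocytes and 0.07 against C1q macrophages.

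The share of low-Cxcl10 monocytes among all cells was lower in each cKO library than in either WT library. It was 2.32% in WT-1 (exact Clopper-Pearson 95% interval 2.04% to 2.63%), 2.37% in WT-2 (2.10% to 2.65%), 1.84% in cKO-1 (1.56% to 2.15%) and 1.44% in cKO-2 (1.21% to 1.70%). The intervals cover counting error only. The means were 2.34% ± 0.033 in WT and 1.64% ± 0.284 in cKO (SD, n = 2 each), a difference of -0.70 percentage points. A two-sided exact permutation test gave p = 0.33, the smallest that 2 libraries against 2 can give. Cxcl10-high monocytes were at 4.97% and 4.085% of all cells in WT and 2.498% and 4.048% in cKO. There cKO-2 lay next to WT-2 and cKO-1 was lowest, while cKO-2 was lowest among the low-Cxcl10 monocytes. Thbs1-high monocytes overlapped between the genotypes, at 1.057% and 0.9759% in WT and 1.475% and 1.001% in cKO. A share among captured cells does not give the number of cells in a tumour.

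Among all monocytes of the gate without the limits on Cxcl10 and Thbs1, the low-Cxcl10 cells were 16.8% in WT-1, 21.0% in WT-2, 18.0% in cKO-1 and 11.8% in cKO-2. On that denominator cKO-1 lay between the WT libraries and cKO-2 was below them (exact permutation p = 0.667). As an alternative, cells under 5000 UMIs were dropped and the others thinned to 5000 UMIs before gating. This kept 6450 and 7647 cells in WT and 5076 and 6503 in cKO. The shares of the cells kept were 3.19% and 3.61% in WT and 2.34% and 2.14% in cKO. The monocytes were deepest in cKO-1, with a median of 13175 UMIs.

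**Figure D4:**
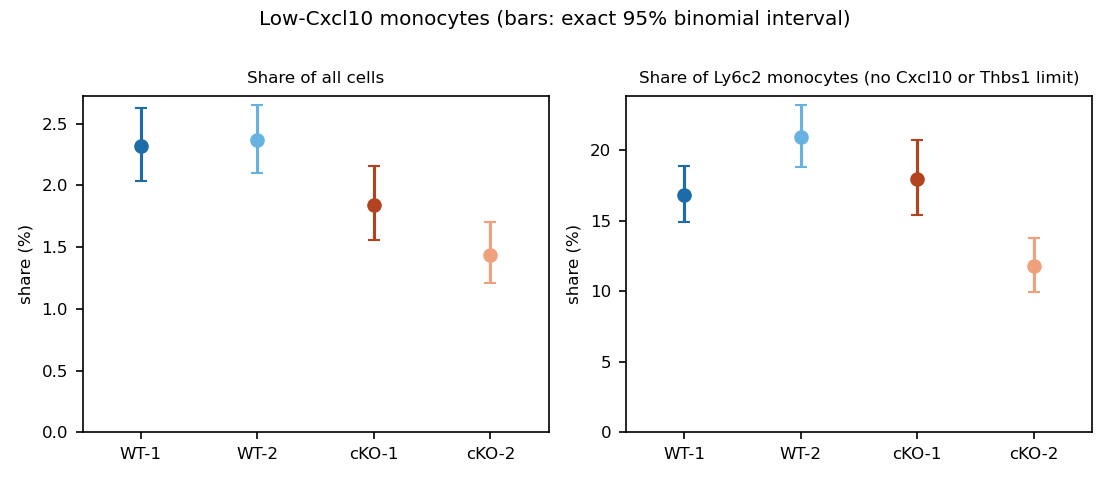
Share of low-Cxcl10 monocytes (vertical axes in %, from 0) among all cells (left) and among Ly6c2 monocytes without limits on Cxcl10 and Thbs1 (right), 1 point per library with its exact 95% binomial interval. The cKO libraries were at 1.84% and 1.44% of all cells and the WT libraries at 2.32% and 2.37%, while cKO-1 lay between the WT libraries on the right.

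Between genotypes, no gene of these monocytes passed the test. Of 9436 genes tested with edgeR's quasi-likelihood test, 0 (0%) had an adjusted p under 0.05, and 378 (4.01%) had an unadjusted p under 0.05. DESeq2 called 2 genes, Il1b and Cxcl9. Beginning with the targeted gene, Trim25 (chr11:88999376-89020293, plus strand) was at 194 and 158 CPM in WT and 145 and 176 CPM in cKO monocytes. Those ranges overlapped (log2 fold change of cKO over WT -0.13 ± 0.17, adjusted p = 0.999). Vsir was at 179 CPM in both WT libraries and at 159 and 157 CPM in cKO (-0.18 ± 0.14, adjusted p = 0.999).

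Monocyte markers were not called between genotypes. F13a1 had a log2 fold change of 0.13 ± 0.13 and Ccr2 of 0.00 ± 0.13, at 1480 and 1518 CPM in WT against 1621 and 1367 CPM in cKO (adjusted p = 0.999 and 1.00). The 18 leading genes outside the gate lay between -0.31 (Gm9733) and 0.13 (F13a1), with a median of -0.01. Arg1 was at 46.1 and 19.1 CPM in WT and 22.1 and 43.0 CPM in cKO, so the spread within each genotype was wider than the difference (0.00 ± 0.39).

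Il1b (chr2:129364570-129371139, minus strand), the gene of interleukin 1 beta, was at 1240 and 1189 CPM in WT and 2822 and 2107 CPM in cKO. Both cKO values were above both WT values, with a log2 fold change of 1.03 ± 0.15 and an adjusted p of 0.226. Over 14 alternatives the fold change ranged from 0.81 to 1.34 and the adjusted p from 3.19e-10 to 0.462, and the gene was called in 6 of them. Il1b UMIs in T cells, which should lack the gene, moved with the genotypes as well. At 5000 UMIs per cell, 18.3% of T cells in WT-1, 20.9% in WT-2, 33.0% in cKO-1 and 27.8% in cKO-2 held an Il1b UMI, against 53.2%, 53.9%, 69.3% and 64.8% of the monocytes. The part of free RNA in the monocyte difference was not tested. Inflammatory genes as a list had 16 of 19 tested members above 0 with 0 called and a median of 0.37, beside 49.7% above 0 and a median of 0.00 over all genes. Nfkbia, an inhibitor of NF-kB, was at 654 and 570 CPM in WT and 831 and 946 CPM in cKO (0.54 ± 0.14, adjusted p = 0.999).

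Interferon genes had 12 of 38 members above 0 and 26 below, with 0 called and a median of -0.14. Ifit1, chosen after its values were seen, was at 147 and 141 CPM in WT and 66.4 and 74.1 CPM in cKO (-1.03 ± 0.16, adjusted p = 0.226). Over 14 alternatives it ranged from -1.89 to -0.23 and its adjusted p from 5.77e-05 to 1.00. The value nearest to 0 came with cells thinned to 5000 UMIs before gating, and it was -0.26 without the limits on Cxcl10 and Thbs1. Cxcl9, a T cell attractant induced by interferon gamma and likewise chosen after its values were seen, was at 239 and 170 CPM in WT and 110 and 74.7 CPM in cKO (-1.13 ± 0.21, adjusted p = 0.467). It was at 0.17 with thinned cells. Cxcl10 itself, which the gate held down, was at 38.5 and 38.5 CPM in WT and 26.6 and 30.5 CPM in cKO. Members with no Cxcl10 UMI were 131 of 237 in WT-1, 165 of 286 in WT-2, 97 of 151 in cKO-1 and 86 of 135 in cKO-2.

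MHC class II and dendritic-cell-like genes had 10 of 12 members above 0, with 0 called and a median of 0.44. H2-Ab1, chosen after its values were seen, was at 442 and 470 CPM in WT and 655 and 851 CPM in cKO (0.73 ± 0.16, adjusted p = 0.832). Cd74 was at 666 and 812 CPM in WT and 973 and 1333 CPM in cKO (0.65 ± 0.18, adjusted p = 0.999). Neither passed the test. MHC class II UMIs in T cells were higher in both cKO libraries too. For H2-Ab1 and Cd74, cKO-1 lay closer to WT-2 than to cKO-2 in T cells and monocytes alike. At 5000 UMIs per cell, 36.3% and 38.6% of T cells in WT and 39.3% and 42.7% in cKO held an H2-Ab1 UMI. A Cd74 UMI was held by 49.6% and 55.5% of T cells in WT and by 57.2% and 65.98% in cKO. The summed list was at 1754 and 1711 CPM in WT and 1875 and 2352 CPM in cKO T cells, and the part of free RNA in the monocyte values was not tested.

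**Figure D5:**
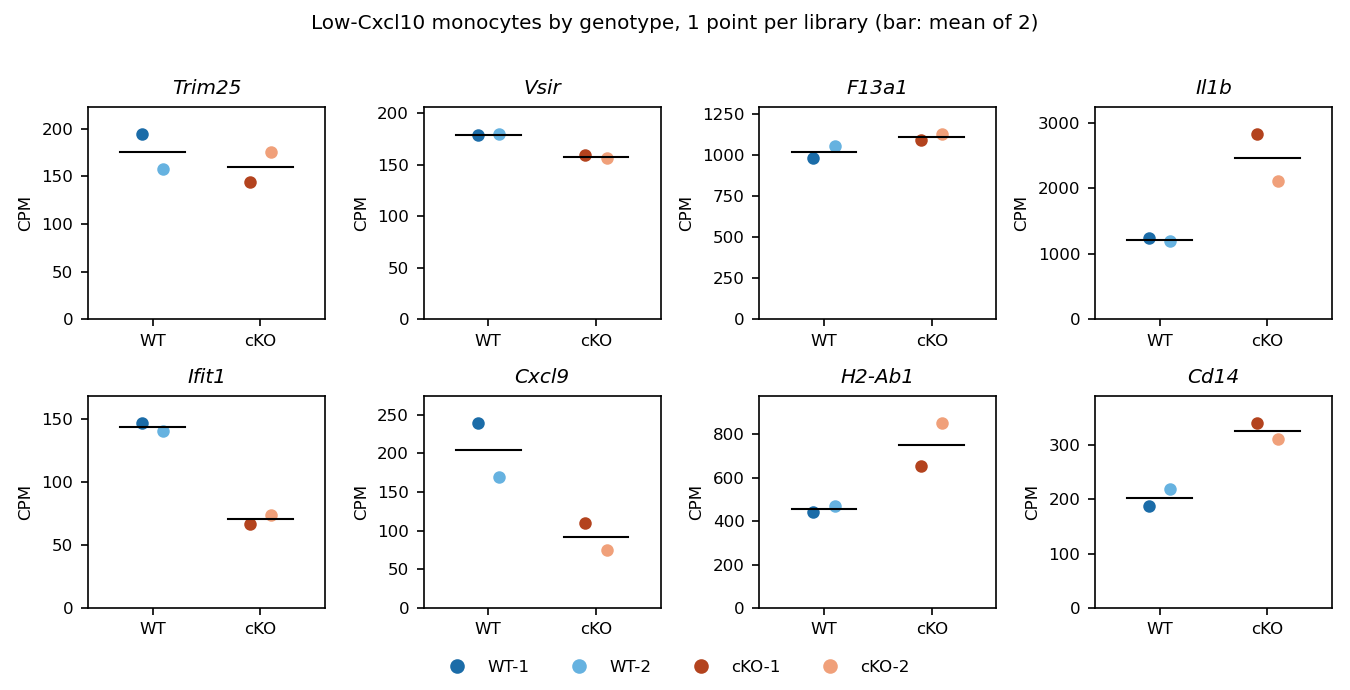
Level in CPM (vertical axes, each from 0) of 8 genes in the low-Cxcl10 monocytes, by genotype, with 1 point per library and the mean of 2 as a bar. Il1b was at 1189 to 1240 CPM in WT and 2107 to 2822 CPM in cKO, Trim25 overlapped between the genotypes, and no gene passed the test over all genes.

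Whether the genotype difference itself differed between low-Cxcl10 and Cxcl10-high monocytes was tested as an interaction, with the library as a term. Of 10446 genes, 0 (0%) were called with edgeR and 472 had an unadjusted p under 0.05. In Cxcl10-high monocytes alone, 0 of 10812 genes were called between genotypes. Il1b was at 1761 and 1390 CPM in WT and 3054 and 2199 CPM in cKO there (0.72 ± 0.18), and its interaction was 0.30 ± 0.10 (adjusted p = 0.988). Ifit1 was at 1036 and 1094 CPM in WT and 733 and 961 CPM in cKO (-0.34 ± 0.17), with an interaction of -0.67 ± 0.13 (adjusted p = 0.294). Rsad2 had the smallest unadjusted p of the genes named, with an interaction of -0.74 ± 0.11 and an adjusted p of 0.141.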

How the data were processed

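The deposited files were used as they stand. For each library they hold raw counts (UMIs of each gene under each cell barcode, with no scaling), which the authors made with Cell Ranger and STAR on mm10, per the submitters' processing notes. The sources used here name no versions, annotation or cell-calling settings. Libraries came from a Chromium v3 3′ kit, per the labels' protocols, but the deposited barcodes are 20 bases long, which that kit does not account for, so the chemistry is unsettled here. Of 32285 feature identifiers, 32158 matched GENCODE vM21 on GRCm38 (also called mm10), from which gene coordinates were taken.

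Members, comparison populations and the 21 gene lists and 11 marker lists were chosen with earlier results of these data known. Raw counts were summed per library and population; a library's total counts were 96751399 to 127449324 UMIs. edgeR 4.0.16 (run under R 4.3.3) was used for the quasi-likelihood F test on the sums, after filterByExpr and TMM scaling, with Benjamini-Hochberg adjustment over all genes, a threshold of 0.05 and the library as a term between populations. Tests were two-sided. The 15 gate genes and mitochondrial genes stayed in library sizes and out of all calls. The fits were tested on simulated counts. The common biological coefficient of variation between libraries was 0.135, and chi-square per degree of freedom between pairs of libraries was 3.02 to 4.72 in the members, so none repeated another.

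Named genes were, between genotypes, the called genes and always Trim25, Vsir, F13a1, Ccr2, Arg1 and Il1b. Between populations they were the 10 highest and 10 lowest log2 fold changes among called genes at 100 CPM or more in either population, and the 4 largest changes of each list. Other genes named were chosen after their values were seen. Doublets were scored with Scrublet in scanpy 1.11.5; its automatic threshold marked 0 cells in every library and had not worked, so cells scoring above 0.2 (7 members in all) were left out as an alternative. DESeq2 1.42.0, other scaling, no filter on low counts, other gates, thinning and left-out libraries were further alternatives. Leaving out cells with an NK marker UMI was chosen after seeing the data. Promoters were matched by symbol.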

Additional observations from a re-analysis of the deposited data

How the results depend on the processing

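Between genotypes, 0 genes were called with TMM and with the size factors of DESeq2 in edgeR, with Cxcl10 at 0, without the limits on Cxcl10 and Thbs1, with high Scrublet scores left out and after thinning. Called were 29 genes with no filter on low counts, 2 by DESeq2, 1 with Ly6c2 at 10 or more UMIs, 9 with at most 5% mitochondrial UMIs, and, with 1 library left out, 27 (cKO-2), 19 (WT-2), 9 (cKO-1) and 2 (WT-1). Where an arm then held 1 library, its spread was assumed to be that of the other genotype. Deviations from the genotype means correlated at -0.05 by library number. With 2 libraries per genotype both numbers must give the same value, so it does not settle whether the numbers pair the samples. With the number as a replicate block, 0 genes were called and Arg1 turned to 0.043. Other changes of sign between genotypes were as follows. Ccr2 was at 0.0025 with the other size factors, 0.051 without the limits on Cxcl10 and Thbs1, 0.18 at 5% mitochondrial UMIs, 0.064 after thinning and -0.12 to 0.11 with 1 library left out. Arg1 was at 0.0060 with DESeq2, 0.59 without the limits, 0.14 at 5% mitochondrial UMIs, and -0.55 to 0.74 with 1 library left out. Without the limits Vsir was at 0.056 and Gpnmb at 0.071 (-1.84 with them), after thinning Ifit2 was at 0.022 (-0.77 before) and Cxcl9 at 0.17 (-1.13 before), and Trim25 was at -0.29 to 0.021 with 1 library left out. The causes were not tested.

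The interaction had 26 calls with no filter on low counts, and, with 1 library left out, 21 (cKO-1), 13 (cKO-2), 8 (WT-2) and 5 (WT-1). Against Cxcl10-high monocytes 2742 genes were called, 1721 by DESeq2 (486 higher and 1235 lower), 1312 with cells holding an NK marker UMI left out, and 2070 to 2385 with 1 library left out. Against Thbs1-high monocytes 653 were called, 422 by DESeq2, 202 without those cells, where Ifit1bl1 turned to 0.18, and 357 to 521 with 1 library left out. Against C1q macrophages the 5121 calls stayed within 1.5 times under all 9 alternatives. The difference in share was -0.46 percentage points with Ly6c2 at 10 or more, -0.27 with Cxcl10 at 0, -1.33 without the limits on Cxcl10 and Thbs1, where the genotypes overlapped (13.8% and 11.3% in WT, 10.2% and 12.2% in cKO, exact permutation p = 0.667), -1.16 after thinning, and -0.90 to -0.50 with 1 library left out.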

Other observations

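Between low-Cxcl10 and Thbs1-high monocytes, of 21 oxidative phosphorylation genes and 17 tested proliferation genes, 0 were called in either direction with edgeR, with medians of -0.09 and 0.04, and 1 and 2 had an unadjusted p under 0.05. Over all 8498 genes of that edgeR comparison, 1.86% were higher and 5.82% lower, and 1681 had an unadjusted p under 0.05. DESeq2 also called 0 genes of either list. Against C1q macrophages, 11 of 16 genes of the unfolded protein response were lower and 3 higher, with Sdf2l1 at 86.9 ± 11.7 CPM against 155 ± 9.53 CPM (log2 fold change -0.81 ± 0.08) and Xbp1 at 201 ± 23.6 CPM against 106 ± 5.37 CPM (0.96 ± 0.07). Of 22 myeloid transcription factors, 16 were higher and 3 lower in that comparison. Klf4 was at 286 ± 50.1 CPM against 76.0 ± 13.4 CPM (1.95 ± 0.08), and Cebpb at 277 ± 23.7 CPM against 64.3 ± 9.51 CPM (2.15 ± 0.08).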
